A study of Mus musculus with 4 samples.

Results

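The genes described here encode the ATP-dependent chromatin remodellers of mouse embryonic stem (ES) cells: the SWI/SNF or BAF subunits, the ISWI and INO80 ATPases, Smarcad1, the CHD ATPases and 3 partners of the NuRD complex. The 38 genes were chosen by name, and every array probe whose deposited gene name was one of the 38 was taken, each probe apart. This gave 62 probes of the 55681 on the array, for 38 of its 36163 gene names. BAF subunits had 37 probes for 22 genes, ISWI 3 probes for 2 genes, Ino80 and Smarcad1 3 probes for 2 genes, and the CHD ATPases with their NuRD partners 19 probes for 12 genes. One probe stood for 22 of the genes, and 16 genes had from 2 to 4 probes.

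RNA came from E14Tg2A, an established mouse ES line of strain 129/Ola. The ES group was untreated cells at day 0 in serum and LIF, the cytokine that keeps ES cells undifferentiated. The other 3 groups were epiblast-like aggregates (ELA), floating clusters grown for 2 days in a defined medium without LIF, which take the cells from the ground state toward the primed state of the epiblast. ELA were left untreated, or received the DNA methyltransferase inhibitor 5-azacytidine at 50 nM (AZA) or the histone lysine demethylase inhibitor 5-carboxy-8-hydroxyquinoline at 100 µM (CHQ), while they formed. The study asked how interference with chromatin regulators bears on the step from ground to primed state. Each group was 1 array that held RNA pooled from 3 experiments, so no spread between replicates exists and no test between groups was possible. The ES and ELA arrays lay on one slide and the AZA and CHQ arrays on another, so slide and treatment cannot be told apart where a treated array is set against ELA.

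Remodellers use the energy of ATP to slide, evict or exchange nucleosomes. BAF complexes open chromatin at enhancers and promoters, and ES cells assemble a form built on the ATPase Smarca4 (Brg1) with Smarcc1 and Arid1a, whose subunits are exchanged when cells become neural. ISWI enzymes space nucleosomes evenly, INO80 acts on the histone variant H2A.Z and is found at promoters of pluripotency genes, and NuRD couples the CHD ATPases Chd3 and Chd4 to histone deacetylases and, through Mbd3, restrains genes of the ground state.

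The 60-base sequences of some probes are shown as the scanner files give them. Those of Smarca4, Smarcc1, Arid2, Pbrm1 and Mbd3 lie upstream of the most downstream probe, in genes whose probes differed in size or call. For Smarcc1 and Pbrm1 they are not the most upstream probe, which is on another transcript model and not shown. That of Smarcd3 carried the widest spread of a core subunit, and that of Ino80 is from a gene whose level was lowest in ELA. Whether a probe lies in coding or untranslated sequence was not assigned, since no transcript annotation of this build was used here. Each has at least 1 open forward frame, which by itself does not show that it is coding. No stretch within a probe was analysed apart, so none is capitalised. The number after a gene is the first nucleotide of the probe in the transcript it was designed on. Coordinates are of build mm9.
Smarca4 4270: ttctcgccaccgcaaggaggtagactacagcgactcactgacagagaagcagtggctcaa
Smarcc1 2750: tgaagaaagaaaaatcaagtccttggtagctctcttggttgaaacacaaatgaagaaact
Smarcc1 2838: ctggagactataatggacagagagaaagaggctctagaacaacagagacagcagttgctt
Smarcd3 1513: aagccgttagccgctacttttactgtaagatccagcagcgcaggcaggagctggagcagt
Arid2 331: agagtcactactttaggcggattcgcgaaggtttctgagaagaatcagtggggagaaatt
Pbrm1 471: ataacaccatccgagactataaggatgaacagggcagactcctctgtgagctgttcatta
Ino80 3633: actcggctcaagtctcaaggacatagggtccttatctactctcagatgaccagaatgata
Mbd3 864: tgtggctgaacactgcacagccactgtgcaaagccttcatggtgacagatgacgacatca

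The Smarca4 probe lies at chr9:21483531-21483590 on the plus strand. The Smarcc1 probes lie at chr9:110116027-110116086 and chr9:110116115-110124422 on the plus strand, and the second of them spans 8308 bases of genome, across an intron. The Smarcd3 probe spans chr5:24098592-24098863 on the minus strand and the Arid2 probe chr15:96118389-96119515 on the plus strand, both longer on the genome than the probe itself. Pbrm1 is probed at chr14:31840656-31840715 (plus strand), Ino80 at chr2:119232564-119232623 (minus strand) and Mbd3 at chr10:79856639-79856698 (minus strand). The polyadenylation signal AATAAA, searched in the probe sequence on the transcript strand only, stood in 7 of the 62 remodeller probes (11.3%) and in 10.1% of all 55122 usable probes.

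Levels are log2 intensities after background correction and quantile normalisation of the 4 arrays, and a difference of 1 is 2-fold. A probe was called higher or lower when its log2 difference was at least 1, both arrays averaged 7.5 or more, and at least 1 of them carried the scanner software's mark for a signal well above background. Levels of different probes are not compared, since probes bind with different strength. On the ES, ELA, AZA and CHQ arrays 59, 58, 59 and 60 of the 62 probes were well above background, and 57 were so on all 4. This is a larger share than over all probes, of which 51.1% were well above background on all 4 arrays. The exceptions were Actl6b, the neuron-specific actin-related BAF subunit, and the Arid2 probe at nucleotide 8971, which were not well above background on any array, and Dpf3, Arid1b (nucleotide 3420) and Chd2 (nucleotide 6049), which were so on some.

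Across the arrays as a whole, 60.6%, 55.1%, 69.1% and 69.2% of gene spots were well above background in the order ES, ELA, AZA, CHQ. The local background had medians of 59, 77, 14 and 13 intensity units, and repeated spots of a probe varied within an array by an SD of 0.12 to 0.17 log2 units. All 7 markers of the naive state were well above background on every array. Summed and in the same order, they stood at 17.13, 14.01, 17.66 and 16.24 on the log2 scale, and the primed epiblast markers at 17.88, 18.89, 17.63 and 18.10. Such a sum is carried by its brightest probes, and the primed one mostly by Dnmt3b, at 18.49 in ELA. Of 6 primed probes 5 were called lower than ELA with AZA and 4 with CHQ. Otx2 with AZA and Pou3f1 with CHQ lay above ELA, by 0.33 and 0.30. Markers of other cells moved too. Of 5 primitive endoderm markers 2, 1, 5 and 4 were well above background (summed level 9.15, 9.1, 9.86 and 11.10), and of 4 trophoblast markers 3, 0, 2 and 3. The neural markers summed to 9.35, 10.02, 8.68 and 8.78 (3, 3, 2 and 2 of 3 well above background) and the mesoderm markers to 7.90, 7.55, 8.54 and 8.36 (1, 1, 2 and 2 of 2). The 3 fibroblast markers, of which Thy1 is also expressed by ES cells, summed to 12.33, 13.69, 12.92 and 11.56. That sum is nearly all Thy1, at 13.58 in ELA. The 2 collagens differed in direction with AZA, where Col1a1 gave 1.30 and Col1a2 -1.87 relative to ELA. What part the background level or these other cells have in the differences below was not tested, and in bulk RNA fewer cells of a type cannot be told apart from less RNA per cell.

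Between ES and ELA the remodellers moved little. Of 56 probes that could be called, 1 was higher and 1 lower in ELA, against 9.7% of all probes called (4.08% higher, 5.62% lower). The median difference was 0.22 (42 probes above 0, 17 below), where the median of all probes was -0.04. The sign of this shift depends on the scaling, since it was -0.37 when arrays were scaled to spike-in probes. That scaling moved every difference by the same -0.59, and so the median of all probes from -0.04 to -0.64. It turned the sign of 34 of 59 single differences, the largest of them 0.59. With AZA, 16 of 56 probes were called against ELA (28.6%, against 26.3% of all probes), 2 higher and 14 lower. Lower calls made up 25.0% of the remodeller probes and 12.2% of all probes, and higher calls 3.57% and 14.1%. With CHQ the counts were again 2 higher and 14 lower (28.6%, against 27.0% of all probes), with lower calls at 25.0% against 12.7% and higher calls at 3.57% against 14.2%. Read at 1 probe per gene, the most downstream, the lower shares were 14.3% with AZA and 11.8% with CHQ, and the higher shares 5.71% and 5.88%. The median differences over the 60 probes well above background on either array were -0.27 with AZA and -0.49 with CHQ, beside -0.02 and -0.03 over all probes. Between CHQ and AZA, which share a slide, 6 of 56 probes were called (against 9.65% of all probes), 3 higher and 3 lower with CHQ (against 5.01% and 4.63%), with a median of 0.06, or -0.13 under spike-in scaling. By complex, 10 of the 32 BAF probes that could be called were called with AZA (1 higher, 9 lower) and 11 with CHQ (1 higher, 10 lower), and of the 18 CHD and NuRD probes 5 (1 higher, 4 lower) and 4 (1 higher, 3 lower). These are 31.25% and 34.4% for BAF and 27.8% and 22.2% for CHD and NuRD, beside 26.3% and 27.0% of all probes. Lower calls were 28.1% and 31.25% for BAF and 22.2% and 16.7% for CHD and NuRD, beside 12.2% and 12.7%. The BAF lower calls came from 6 genes with each inhibitor, some counted at more than 1 probe. The median BAF difference was 0.29 between ELA and ES, which turned to -0.30 under spike-in scaling, -0.27 with AZA and -0.54 with CHQ. For CHD and NuRD together the medians were 0.11, -0.31 and -0.37, in the same order. Apart, the CHD probes had a median of 0.17 with CHQ (7 above 0, 6 below), turning to -0.31 under spike-in scaling and -0.15 under scaling to the 75th percentile, and the NuRD partners -0.48. Between ELA and ES the CHD median of 0.11 turned to -0.48 under spike-in scaling and to -0.04 under scaling to the 75th percentile. Within BAF the medians with CHQ were 0.17 for the ATPases and 0.06 for canonical BAF, both turning below 0 under spike-in scaling (-0.30 and -0.41) and scaling to the 75th percentile (-0.43 and -0.37), against -0.78 for the core subunits and -0.90 for PBAF. The ATPase median is the middle of only 3 probes of 2 genes, which ran from -1.79 to 1.55. Canonical BAF, core and PBAF had 11, 12 and 8 probes. With AZA the medians for ATPases, canonical BAF, core and PBAF were -0.23, -0.13, -0.50 and -0.85. ISWI and the pair of Ino80 and Smarcad1 had 3 probes each, given one by one below. AZA against ELA and CHQ against ELA share the ELA array, so their counts are not independent.

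**Figure D1:**
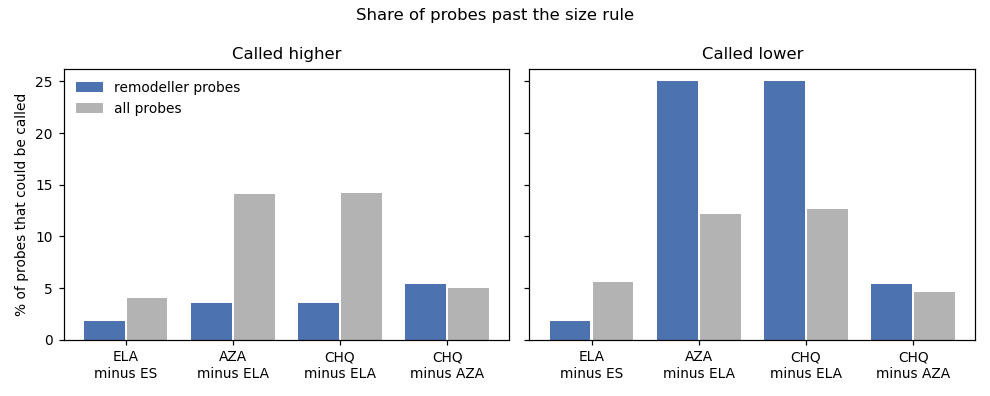
Share of the 56 remodeller probes that could be called (blue) and of all probes that could be called (grey), in percent, that passed the size rule as higher (left) or lower (right) in each of the 4 comparisons, with 1 array per group and so no error bars. In both comparisons of an inhibitor with ELA, 25.0% of remodeller probes were called lower, against 12.2% and 12.7% of all probes, a share that falls to 14.3% and 11.8% at 1 downstream probe per gene.

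**Figure D2:**
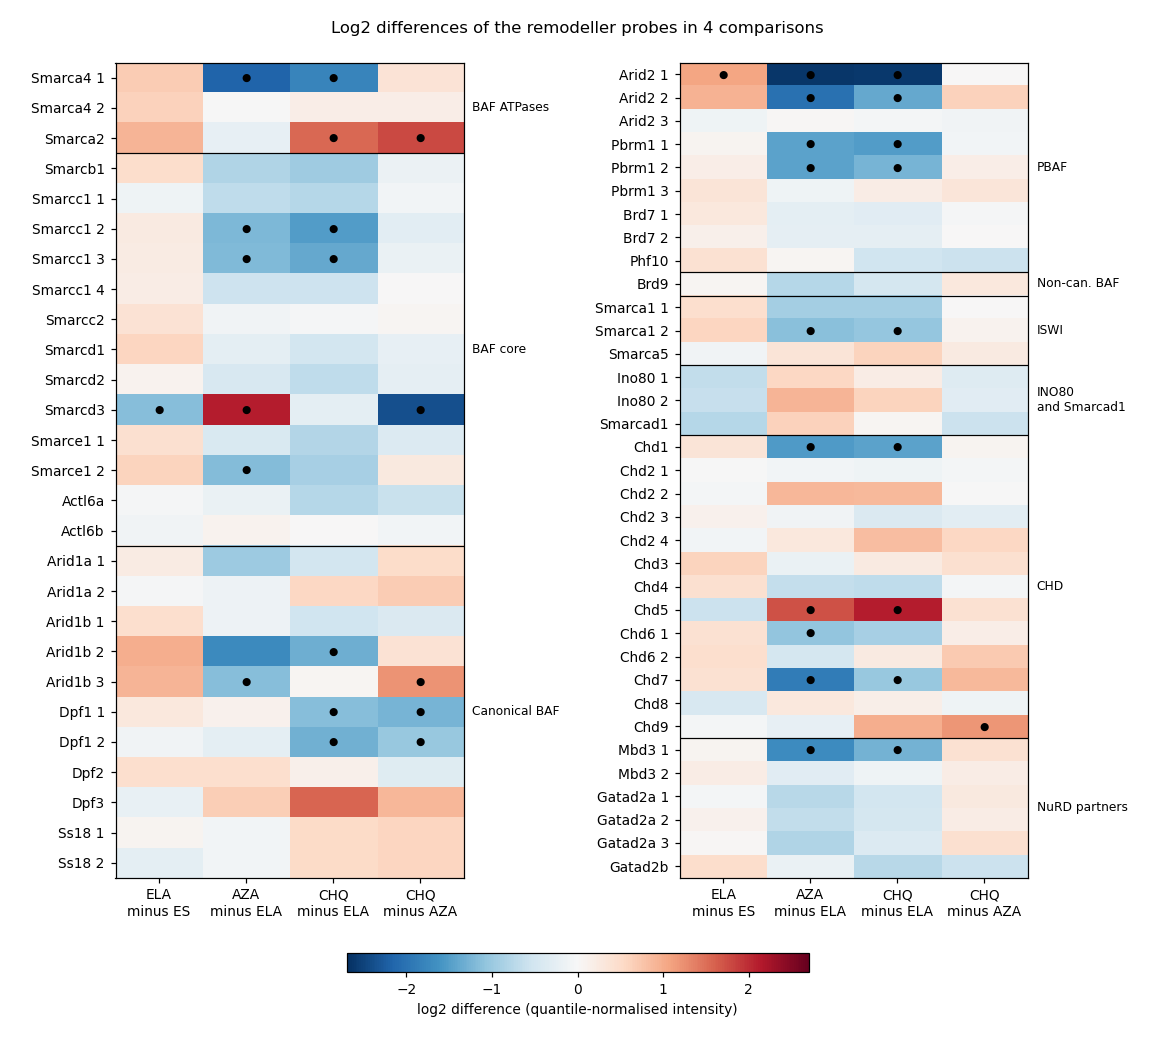
Log2 difference of each of the 62 remodeller probes (rows, grouped by complex and numbered from the 5' end where a gene has several) in the 4 comparisons (columns). Red is higher and blue lower in the first-named array, and a dot marks a probe past the size rule. There are 16 dots in each comparison of an inhibitor with ELA, 2 in ELA minus ES and 6 in CHQ minus AZA.

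The BAF ATPases gave probe-dependent values. Smarca4, the motor of the ES-cell form of BAF, read 12.16 (ES), 12.86 (untreated ELA), 10.69 (AZA) and 11.07 (CHQ) at nucleotide 4270. Both treated arrays lay below both untreated ones, by 2.17 (AZA) and 1.79 (CHQ) relative to ELA, which is 4.49-fold and 3.46-fold lower. At nucleotide 5452 the same gene read 15.47, 16.09, 16.08 and 16.26, so that neither treated array differed from ELA by more than 0.17. Both probes put ELA above ES, by 0.69 and 0.62, below the size rule.

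Smarca2 (Brm) is the alternative ATPase, more used in differentiated cells. Its single probe, at nucleotide 1901, read 6.80 (ES), 7.72 (untreated ELA), 7.49 (AZA) and 9.27 (CHQ). The CHQ array stood apart from the other 3, at 2.93 times the ELA level and 3.44 times the AZA level (5.55 times under scaling to the 75th percentile). With CHQ it was the only BAF probe called higher than ELA.

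Among the core subunits, Smarcc1 (Baf155), a scaffold on which BAF is built, was lower on both treated arrays at all 4 of its probes. The probe at nucleotide 2750 read 10.92, 11.16, 9.93 and 9.64 (ES, ELA, AZA, CHQ). Its neighbour at nucleotide 2838 gave 9.77, 9.98, 8.80 and 8.61. Both were called lower with AZA (differences of -1.22 and -1.19) and with CHQ (-1.51 and -1.37). The probe nearest the 3' end, at nucleotide 3707, read 12.97, 13.17, 12.60 and 12.61, differences of -0.57 and -0.56 that miss the size rule. The remaining probe, on another transcript model, read 8.76, 8.64, 7.96 and 7.87. ES and ELA differed by 0.24 or less at all 4 probes. Smarcc2 (Baf170), the paralogue that replaces Smarcc1 in differentiated cells, read 7.82, 8.21, 8.12 and 8.17, a range of 0.09 among the 3 ELA arrays.

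Smarcd3 (Baf60c), the form of the Baf60 subunit known from heart and muscle, had the widest spread of the core subunits. Its level was 8.73 (ES), 7.58 (untreated ELA), 9.69 (AZA) and 7.31 (CHQ). ELA was 2.21-fold below ES (3.33-fold under spike-in scaling), the only remodeller probe called lower in that comparison (6 were under spike-in scaling), and AZA was 4.32-fold above ELA. CHQ was 5.21-fold below AZA on the same slide, or 9.12-fold under scaling to the 75th percentile, and within 0.27 of ELA. The paralogues did not follow it: Smarcd1 read 9.44, 10.03, 9.76 and 9.53, and Smarcd2 11.41, 11.51, 11.08 and 10.83, with no call.

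Smarce1 (Baf57), which carries an HMG domain, was called lower with AZA at nucleotide 2785, where it read 13.11, 13.70, 12.53 and 12.80. At nucleotide 1873 it read 12.43, 12.87, 12.45 and 12.08, with no call. Smarcb1 (Snf5), a core subunit that docks on the nucleosome, read 13.86, 14.33, 13.52 and 13.37, which left the treated arrays 0.81 and 0.96 below ELA, under the size rule. Actl6a (Baf53a), the actin-related subunit of ES cells and progenitors, read 14.42, 14.40, 14.23 and 13.62. Its neuronal counterpart Actl6b was dim on all 4 arrays and allows no fold.

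Of the subunits of canonical BAF, Arid1a (Baf250a), its DNA-binding subunit in ES cells, read 12.22, 12.45, 11.46 and 11.95 at nucleotide 6764 and 14.21, 14.19, 14.06 and 14.75 at nucleotide 7946. The first probe put AZA 0.98 below ELA and the second 0.13 below, and for CHQ the signs of the probes differed (-0.50 and 0.57). Its paralogue Arid1b (Baf250b) read 10.88, 11.81, 10.67 and 11.87 at nucleotide 6752. There the AZA array lay 2.21-fold below ELA and 2.30-fold below CHQ, while ELA and CHQ differed by 0.06. At nucleotide 3420 it read 7.19, 8.17, 6.46 and 6.85 and was not well above background with AZA, so that ELA was at least 3.27-fold higher than AZA. With CHQ that probe was called lower than ELA (-1.32). That call rests on a mean level just past the minimum of 7.5 and was lost under 4 of the 5 other normalisations, where the difference was larger, from -1.47 to -2.17. The third Arid1b probe, at nucleotide 1824, ranged from 6.69 to 7.21.

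The Dpf genes encode the PHD-finger (Baf45) subunits of BAF, Dpf2 in ES cells and Dpf1 and Dpf3 in neurons and muscle. Dpf1 was lower with CHQ at both probes, with 10.13, 10.42, 10.52 and 9.26 at nucleotide 1526 and 10.31, 10.21, 9.94 and 8.91 at nucleotide 2071. CHQ was thus 2.23-fold and 2.46-fold below ELA, and 2.40-fold and 2.04-fold below AZA on the same slide, the latter 1.97-fold and without a call when no background was corrected. At neither probe did AZA differ from ELA by more than 0.27. Dpf2 read 13.68, 14.14, 14.59 and 14.27. Dpf3 was not well above background in ES and ELA, at 6.74 and 6.55, and read 7.22 with AZA and 8.12 with CHQ, at least 1.39-fold and at least 2.6-fold higher than ELA. Ss18, the subunit fused to SSX in synovial sarcoma, was not called. It read 15.13, 15.21, 15.14 and 15.73 at nucleotide 2844 and 15.32, 15.06, 14.99 and 15.58 at nucleotide 3010. CHQ lay 0.52 above ELA at both probes, or 0.07 and 0.02 under scaling to the 75th percentile.

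PBAF is the form of the complex that holds Arid2 (Baf200) and the polybromo protein Pbrm1 (Baf180) in place of an Arid1 subunit. Arid2 was lower on both treated arrays at both of its measured probes. At nucleotide 331 it read 9.89 (ES), 10.96 (untreated ELA), 8.33 (AZA) and 8.35 (CHQ). ELA was 2.09-fold above ES, the only remodeller called higher there, a call lost under spike-in scaling (1.39-fold), and the treated arrays were 6.17-fold and 6.11-fold below ELA. At nucleotide 8463 Arid2 read 11.09, 12.03, 10.01 and 10.64, so ELA was again the highest array, by 0.94 over ES, 2.02 over AZA and 1.39 over CHQ. At both probes the treated arrays lay below ES, and ES below ELA. The third probe, at nucleotide 8971, was dim throughout.

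Pbrm1 differed along its length. At nucleotide 471 it read 11.03, 11.22, 9.78 and 9.96, and at nucleotide 321 of another transcript model 8.35, 8.43, 6.99 and 6.93. These put AZA 1.44 below ELA at both probes and CHQ 1.25 and 1.5 below. The probe at nucleotide 321 has a low signal on the treated arrays, and under scaling to the 75th percentile its differences were -2.36 (AZA) and -2.55 (CHQ), against -1.52 and -1.29 at nucleotide 471. Its mean level was too low for a call in 3 of the 5 other normalisations with AZA and in 4 with CHQ, although the difference was larger there. At nucleotide 5412 it read 9.52, 9.86, 9.74 and 10.07, with AZA 0.12 below and CHQ 0.21 above ELA, the latter turning to the other side under spike-in scaling. The other PBAF subunits were called in no comparison. Brd7, a bromodomain subunit, read 14.61, 14.91, 14.65 and 14.61 at its first probe, and Phf10 (Baf45a), the Dpf-related subunit of progenitors, 12.85, 13.26, 13.31 and 12.72. Brd9, which marks non-canonical BAF, read 10.91, 10.97, 10.21 and 10.48, without a call.

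**Figure D3:**
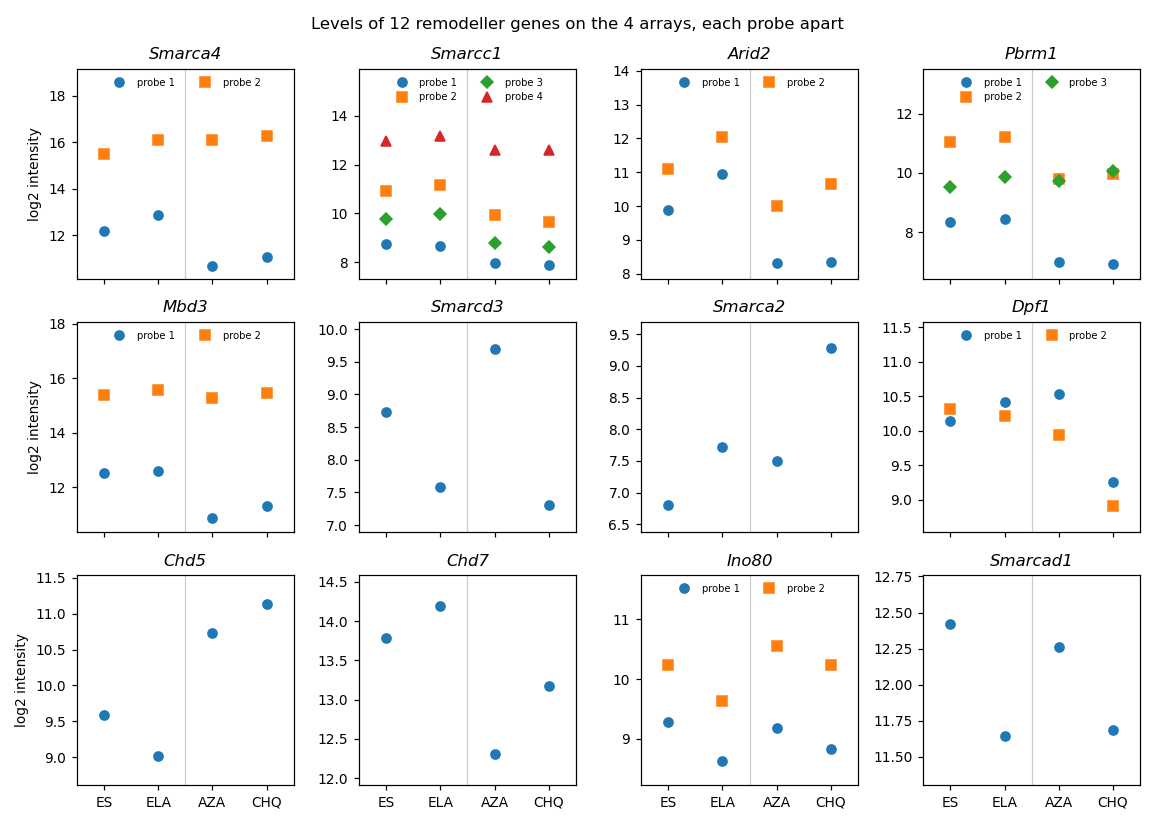
Log2 intensity of 12 remodeller genes on the ES, ELA, AZA and CHQ arrays, 1 point per array and probe, probes numbered from the 5' end. The grey line separates the slides, the vertical scales differ between panels, and the dim Arid2 probe at nucleotide 8971 is not drawn. Smarca4, Pbrm1 and Mbd3 have an upstream probe that is lower on both treated arrays and a downstream probe that, as drawn, differs from ELA by 0.31 at most. Under scaling to the 75th percentile the downstream Smarca4 probe gave -0.43 for CHQ minus ELA.

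The ISWI ATPases differed from each other. Smarca1 (Snf2l), the form of differentiating neurons, read 11.05, 11.51, 10.59 and 10.60 at one probe and 10.69, 11.27, 10.13 and 10.23 at the other. Both treated arrays lay below ES and ELA at each, by 0.91 from ELA at the first and by 1.14 (AZA) and 1.04 (CHQ), past the size rule, at the second. Smarca5 (Snf2h), the ISWI ATPase of proliferating cells, read 14.14, 14.05, 14.40 and 14.65, with both treated arrays above ELA by 0.34 and 0.59.

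Ino80 and Smarcad1 had another order of arrays. Ino80, the ATPase of its complex, read 9.29, 8.62, 9.18 and 8.83 at nucleotide 3633 and 10.24, 9.63, 10.55 and 10.23 at nucleotide 6198. Smarcad1, which helps restore heterochromatin after replication, read 12.42, 11.64, 12.26 and 11.69. In all 3 probes ELA was the lowest array, by 0.66, 0.62 and 0.78 below ES, and AZA lay 0.56, 0.92 and 0.62 above ELA. CHQ lay 0.21, 0.60 and 0.04 above ELA, a direction whose median for these probes turned from 0.21 to -0.27 under spike-in scaling. None of these differences reached the size rule.

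Among the CHD ATPases, Chd1, which binds trimethylated lysine 4 of histone H3 and is needed for the open chromatin of ES cells, read 10.08, 10.43, 8.90 and 8.98. Both treated arrays lay below both untreated ones, 2.88-fold (AZA) and 2.73-fold (CHQ) below ELA. Chd2, its close relative, was called at none of 4 probes. At nucleotide 4361 it read 10.79, 10.73, 11.62 and 11.60 and at nucleotide 8059 10.94, 10.86, 11.14 and 11.69, above ELA on both treated arrays, while at nucleotide 892 the 4 arrays lay between 10.91 and 11.06.

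Of the NuRD ATPases, Chd4, the main one in ES cells, read 15.66, 16.08, 15.44 and 15.39, with the treated arrays 0.65 and 0.69 below ELA. Chd3 read 11.14, 11.74, 11.55 and 11.98. Neither was called. Chd5, the NuRD ATPase of neurons, was called higher than ELA with both inhibitors. It read 9.59 (ES), 9.02 (untreated ELA), 10.74 (AZA) and 11.14 (CHQ), so that both treated arrays lay above both untreated ones, 3.29-fold and 4.34-fold above ELA.

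The large CHD proteins of the Kismet type moved in several ways. Chd7, the gene mutated in CHARGE syndrome, which acts at enhancers, read 13.79, 14.20, 12.31 and 13.18, with AZA 3.71-fold and CHQ 2.03-fold below ELA. Chd9 read 12.78, 12.72, 12.50 and 13.69, with CHQ 2.28-fold above AZA (1.99-fold, without a call, under spike-in scaling). CHQ also lay 0.92 above ES, which turned to -0.15 under spike-in scaling. Chd6 read 8.94, 9.36, 8.30 and 8.47 at nucleotide 2696, called lower with AZA (-1.07, or -0.97 without background correction, which misses the rule), and 9.35, 9.80, 9.33 and 10.04 at nucleotide 10043, where CHQ lay 0.24 above ELA, a direction that turns under spike-in scaling. Chd8, a regulator of Wnt target genes, ranged from 14.82 to 15.25.

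Mbd3, the NuRD subunit needed for its assembly in ES cells, read 12.51, 12.58, 10.88 and 11.30 at nucleotide 864. The treated arrays were 3.24-fold (AZA) and 2.43-fold (CHQ) below ELA there. At nucleotide 1413 the same gene read 15.39, 15.58, 15.27 and 15.47, at most 0.31 from ELA on the treated arrays. The Gatad2 proteins bridge Mbd3 and Chd4. Gatad2a read 13.03, 12.99, 12.24 and 12.50 at its first probe, and lay below ELA with both inhibitors at all 3 probes, by 0.66 to 0.80 with AZA and by 0.37 to 0.49 with CHQ, without a call. Gatad2b read 9.29, 9.77, 9.60 and 9.03.

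Since the differences between treated arrays and ELA were lower at the upstream than at the downstream probe in Smarca4, Arid1a, Pbrm1, Chd6 and Mbd3, the most upstream and most downstream measured probe were compared for all 16 genes with more than 1. In CHQ minus ELA the upstream probe had the lower value in 13 of 16 genes, by at least 1 in 6 of them, and the median of upstream minus downstream was -0.49. In AZA minus ELA it was lower in 10 of 16, by at least 1 in 3, with a median of -0.24. The median was -0.04 for ELA minus ES (9 of 16 lower, 0 by at least 1) and -0.19 for CHQ minus AZA (14 of 16 lower, 1 by at least 1). Smarca4, Arid1a, Pbrm1, Chd6 and Mbd3, which prompted the comparison, stayed among the 16 genes. Together with Arid2 they are the 6 genes lower by at least 1 in CHQ minus ELA. Smarca4, Pbrm1 and Mbd3 are the 3 in AZA minus ELA. The counts against ELA thus partly restate the genes that prompted them, and no count without these genes was made. With AZA 6 of the 16 genes ran the other way: the upstream probe was above the downstream one by 1.01 in Arid1b, 0.76 in Smarce1, 0.38 in Dpf1, 0.23 in Smarca1 and less than 0.1 in Gatad2a and Ss18. The upstream Arid1b probe, at nucleotide 1824, was too dim for a call (7.21 in ELA, 7.08 with AZA). The next Arid1b probe, at nucleotide 3420, was left out as not well above background with AZA. It gave -1.71, against -1.14 at the downstream probe.

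Over the other genes of the array, pairs were taken only where both probes lay on one transcript model at least 500 nucleotides apart. This limit was not set for the remodeller pairs above. The array medians were -0.07 for ELA minus ES (2129 genes) and -0.30 for AZA minus ELA (2138 genes). They were -0.45 for CHQ minus ELA (2151 genes) and -0.09 for CHQ minus AZA (2447 genes). The upstream probe was lower in 59.2%, 66.9%, 74.0% and 60.5% of these genes. It was lower by at least 1 in 18.2% of them for AZA minus ELA and in 20.5% for CHQ minus ELA, and higher by at least 1 in 4.77% and 3.25%. The difference between upstream and downstream probes was thus present over the array as a whole, and what it comes from was not tested.

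**Figure D4:**
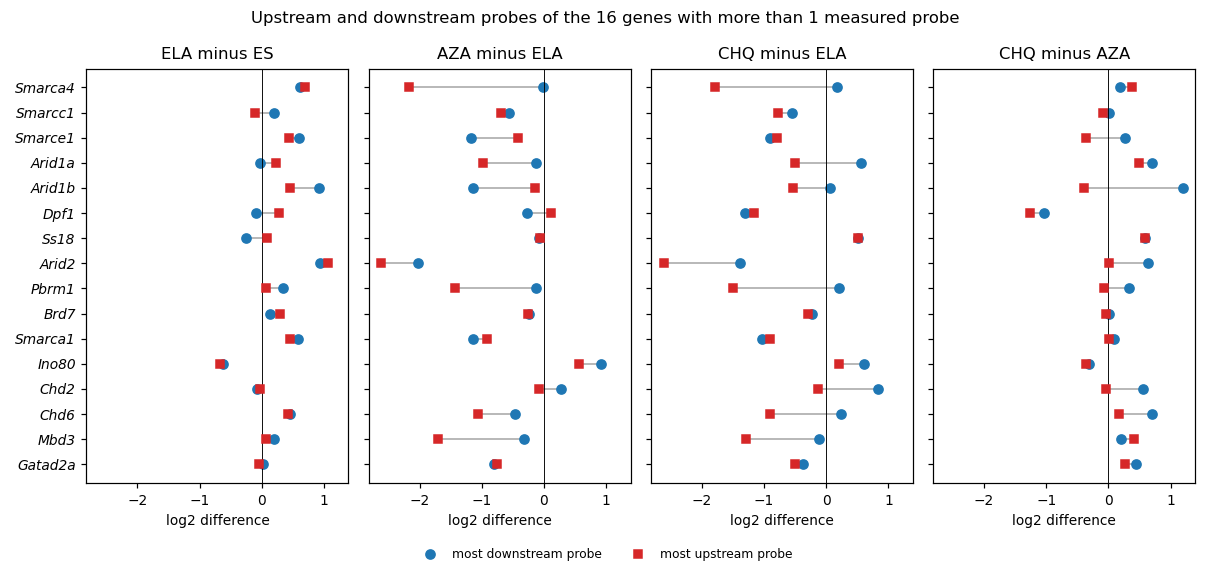
Log2 differences at the most upstream (red square) and most downstream (blue circle) measured probe of the 16 remodeller genes with more than 1, in each of the 4 comparisons. In CHQ minus ELA the square lies to the left of the circle in 13 of 16 genes, and Smarca4, Arid1a, Arid2, Pbrm1, Chd6 and Mbd3 are at least 1 apart. All of these except Arid2 are genes that prompted the comparison.

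When each gene was read only at its most downstream probe, 7 of 35 probes were called with AZA (2 higher, 5 lower) and 6 of 34 with CHQ (2 higher, 4 lower). The lower share was then 14.3% with AZA and 11.8% with CHQ, beside 12.2% and 12.7% of all probes. The higher share was 5.71% and 5.88%, beside 14.1% and 14.2%. The shares of all probes were not limited to the most downstream probe of a gene. The median difference was -0.20 with AZA and -0.07 with CHQ. The genes called lower there were Smarce1, Arid1b, Smarca1, Chd1 and Chd7 with AZA, and Dpf1, Smarca1, Chd1 and Chd7 with CHQ. The probe of Arid2 used in this count is the dim one at nucleotide 8971, so Arid2 drops out although both of its measured probes were called lower. In no gene were probes called in opposite directions. In AZA minus ELA 8 of the 16 genes were called at some of their probes only, and in CHQ minus ELA 6.

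Further subunits and other SNF2-type ATPases, taken from a list of 45 genes of which 44 were on the array with 67 probes, were counted by the same rule. Of 62 of these probes that could be called in ELA minus ES, 2 were higher and 1 lower (9.7% of all probes were called). With AZA 1 of 61 was higher and 8 lower than ELA (26.3% of all probes called), and with CHQ 6 of 62 were higher and 8 lower (27.0%). Against AZA, 3 of 60 were higher with CHQ and 0 lower (9.65%). Bcl11a, a zinc-finger BAF subunit of neural and blood cells, read 9.59, 11.46, 9.23 and 9.51 at nucleotide 2980. There it was highest in ELA, by 1.86 over ES (1.27 under spike-in scaling), 2.23 over AZA and 1.94 over CHQ. Its other probe, at nucleotide 2264, read 6.60, 6.36, 6.54 and 6.33 and was well above background with AZA only. Mbd2, which takes the place of Mbd3 in a distinct NuRD complex and binds methylated DNA, read 10.69, 9.49, 10.89 and 12.01 at nucleotide 1414. It was lowest in ELA, by 1.19 below ES (-1.79 under spike-in scaling), and AZA lay 1.40 and CHQ 2.52 above ELA. At nucleotide 775 Mbd2 read 9.81, 9.28, 9.52 and 10.58. ELA lay 0.53 below ES there, under the size rule, but was called lower under spike-in scaling (-1.12). AZA lay 0.24 above ELA (-0.04 under spike-in scaling), under the size rule. CHQ lay 1.30 above ELA (0.83, without a call, under spike-in scaling). CHQ lay above AZA at both probes, by 1.12 and 1.06, or 0.93 and 0.86, without a call, under spike-in scaling. Bcl7c, a BAF-associated protein, was 1.15 higher in ELA than in ES at nucleotide 582 of one transcript model (0.55, without a call, under spike-in scaling), and 1.60 and 1.89 lower with AZA and CHQ than in ELA. Its other probe, at nucleotide 529 of another model, gave 0.54 for ELA minus ES, under the size rule (-0.06 under spike-in scaling). With AZA it gave -0.91, under the size rule, but was called under scaling to the 75th percentile (-1.06) and spike-in scaling (-1.19). With CHQ it gave -1.70, past the rule. Mta1, a NuRD scaffold, was 1.57 lower with AZA, and Baz1a, the partner of Smarca5 in the ACF complex, 1.16 higher with CHQ than with AZA at nucleotide 5287 (0.97, without a call, under spike-in scaling). The other Baz1a probes, at nucleotides 4391 and 6097, gave 0.70 and 0.97, under the size rule. Under scaling to the 75th percentile they gave 1.32, without a call, and 1.11, with a call. The probe at 6097 was also called with no offset (1.08) and with the authors' normalised values (1.09). Against ELA, CHQ was called higher at nucleotides 5287 (1.44) and 6097 (1.11), but at neither under spike-in scaling (0.97 and 0.64).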

How the data were processed

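Total RNA was labelled with Cy3 and hybridised to 4 single-colour Agilent mouse arrays with 60-base probes, 1 per group. The authors deposited, per spot, the mean intensity and the median intensity of the local background, with flags, not normalised between arrays. The file headers name Feature Extraction 10.7.3.1 and the submitters' processing notes version 9.1. A deposited table of log2 values, background-corrected and quantile-normalised by the authors with limma, was used only as an alternative. Array positions are those the authors give for mm9.

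With limma 3.58.1 in R 4.3.3, intensities were normexp-corrected (offset 50) and quantile-normalised. Outlier spots and, once normalised, controls were dropped and repeated spots averaged, leaving 55122 of 55681 probes and every remodeller probe. Saturation flags were absent (0 spots). For a probe dim on one array, the bound sets the bright array against the higher of the dim signal and the lowest signal well above background there.

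With 1 array per group no p-value was computed, and precision is limited by there being 4 arrays. The size rule takes its thresholds from the study's methods, whose p-value could not be applied. The 38 genes, the further subunits, the markers and the comparisons were chosen with earlier results of these data known. Every gene of the 38 is named, with values for each probe past the size rule, and of the further subunits the 3 largest calls per comparison. Alternatives were scaling to the 75th percentile of the processed signal or to spike-in probes, no background correction, no offset, the authors' table, a larger size, and 1 probe per gene. The spike-in scaling shifted the quantile-normalised values of each array by 1 constant and was not a normalisation made anew. A knock-down array was not analysed here.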

Additional observations from a re-analysis of the deposited data

How the results depend on the processing

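None of the 40 probe differences past the size rule changed direction under 5 other normalisations (0 of 200 values), while 67 of the 200 moved by more than the SD that repeated spots give for a difference of 2 arrays (0.19 to 0.23). For spike-in scaling this was fixed in advance. It moves all differences of a comparison by 1 constant, at most by -0.59, which cannot turn a difference of at least 1. Each of these constants is also larger in size than that SD. Differences under the size rule did turn: under spike-in scaling 34 of 59 between ELA and ES, 2 of 60 between AZA and ELA, 9 of 60 between CHQ and ELA and 11 of 60 between CHQ and AZA. Scaling to spike-in probes shifted the median of all probes by -0.59 between ELA and ES, -0.28 between AZA and ELA, -0.47 between CHQ and ELA and -0.20 between CHQ and AZA. It was applied to the quantile-normalised values as 1 constant per array, so every remodeller difference shifted by these same amounts. By construction the remodeller medians became -0.37, -0.55, -0.96 and -0.13. The calls went from 2 to 6 in ELA against ES (from 1 to 0 higher and 1 to 6 lower). In AZA against ELA they went from 16 to 22 (2 higher under each scaling, from 14 to 20 lower). In CHQ against ELA they went from 16 to 26 (2 higher under each scaling, from 14 to 24 lower). Scaling to the 75th percentile shifted the median of all probes by -0.10 between AZA and ELA and by -0.14 between CHQ and ELA. With a size of 1.5 in place of 1, the calls were 0, 8, 6 and 2 in the 4 comparisons, in the same order. With only the brightest probe of a gene they were 1, 8 and 7 in the first 3 of these, and with only the most downstream probe, a choice made after seeing the data, 1, 7 and 6, and the median for CHQ against ELA was -0.073. Limiting the upstream and downstream probes to pairs on one transcript model at least 500 nucleotides apart, also chosen after seeing the data, gave -0.77 (CHQ against ELA) and -0.39 (CHQ against AZA). The other genes of the array gave -0.45 and -0.09 under this limit. The cause of these shifts was not tested beyond what each alternative changes by construction. No paired analysis was possible because each group has 1 array, and for the same reason no array could be left out. A probe near background on one array has only a bound there.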
